A study of Mus musculus with 24 samples.

Results

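miR-22 is a liver-expressed microRNA whose hairpin gives 2 mature arms, miR-22-3p and miR-22-5p, and both were followed here by the name the array files give them, as 2 of the 1881 mouse miRNAs on the array. They were chosen by measured values, namely their level and their early fall in the liver of mice on a steatohepatitis-inducing diet, so the liver values below are a description with no test, and the tests concern serum and time on chow. The study measured miRNAs by 1-colour array in liver and serum after 1, 2 and 6 weeks of diet, in male C57BL/6NJcl mice bought at 5 weeks of age and acclimatized for 1 week. NASH (non-alcoholic steatohepatitis) mice were fed CDAHFD, a high-fat feed that lacks choline, gives amino acids in defined form and holds 0.1% methionine, and control mice ate the chow CE-2. They were aged 7, 8 and 12 weeks at the 3 collections, and with 2 arrays for every combination of tissue, diet and week there were 24 arrays in 12 groups. No label tells separate mice from pools or repeat runs, so the p-values describe only how far these arrays spread, in part perhaps for technical reasons.

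A miRNA is cut from a hairpin and loaded into an Argonaute protein, where its seed (bases 2 to 8) pairs with messenger RNAs and lowers their translation and stability. miR-22 is made from the long non-coding RNA Mir22hg and is found in liver, heart, skeletal muscle and many other tissues. In the mouse heart it is known as a regulator of hypertrophic growth, with Sirt1 and Hdac4 among its targets. miRNAs of hepatocytes are also found in serum, where liver injury is known to raise miR-122.

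Both mature arms and the hairpin are shown because the 2 readouts come from opposite sides of 1 stem. The sequences are those of RefSeq on build GRCm38.p6, all 5' to 3', and both members matched the table. Capitals mark the seed in the mature arms and the whole arm in the hairpin.
mmu-miR-22-3p: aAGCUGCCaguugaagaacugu
mmu-miR-22-5p: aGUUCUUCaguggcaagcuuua
mmu-mir-22: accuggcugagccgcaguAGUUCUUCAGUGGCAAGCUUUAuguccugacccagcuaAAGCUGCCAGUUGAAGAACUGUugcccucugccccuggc
The 3p arm lies at chr11:75463772-75463793, the 5p arm at chr11:75463734-75463755 and the hairpin at chr11:75463716-75463810, all on the plus strand. The seeds AGCUGCC and GUUCUUC differ, and neither is carried by another of the 1738 mature mouse miRNAs in the table. The nearest annotated miRNA gene is Mir3971, 87.6 kb away, followed by Mir132 at 290 kb and Mir212 at 290.2 kb.

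Each arm was read by 2 probes printed in 15 spots each, and the brighter probe stands for the arm. The 3p probe was well above background on all 24 arrays and had no saturated spot. The 5p probe was well above background on all 12 liver arrays but on only 8 of 12 serum arrays, namely all 6 NASH arrays and 2 of 6 control arrays, both of week 1. The median coefficient of variation among the spots of a probe was 3.34% in liver and 3.58% in serum for miR-22-3p, and 6.42% in liver and 17.4% in serum for miR-22-5p. Levels are log2 of the signal divided by the 75th percentile of the same array, taken over probes that were well above background throughout the tissue. Liver and serum were scaled separately and labelled from different amounts of RNA, so their levels are not set against each other, nor are the levels of the 2 arms, which rest on different probes.

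Arrays of the NASH diet were on average richer in signal than control arrays in both tissues, with overlap between single arrays. They detected 337 to 379 miRNAs in liver and 313 to 399 in serum, against 253 to 307 in control liver and 235 to 362 in control serum. The percentile used for scaling was, as the mean over weeks, 0.43 log2 units higher on NASH arrays in liver and 0.78 higher in serum. By week it was 0.23 higher in serum at week 1 and 1.06 higher at weeks 2 and 6. NASH arrays lay in columns 2 and 4 of every slide and control arrays in columns 1 and 3, so diet cannot be told apart from slide column. The hepatocyte markers miR-122-5p, miR-122-3p, miR-192-5p and miR-194-5p were detected on every liver array, and the muscle marker list of 6 had no member tested in liver.

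In liver, miR-22-3p was lower on the NASH diet at every week. At week 1 it was at 3.30 and 3.39 log2 units on NASH arrays, against 4.30 and 3.98 on control arrays. At week 2 it was at 3.16 and 3.18 on NASH arrays, against 3.95 and 3.90 on control arrays. At week 6 it was at 2.81 and 2.99 on NASH arrays, against 4.19 and 3.81 on control arrays. All 6 NASH arrays lay below all 6 control arrays, a separation in this direction that 10.6% of the 388 miRNAs tested in liver showed; since the liver contrast chose miR-22, nothing is read from it.

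The log2 difference, NASH minus control, was -0.88 (SE 0.09) as the mean over weeks, so NASH liver had 0.542 of the control level. It was -0.80 (SE 0.15) at week 1, -0.76 (SE 0.15) at week 2 and -1.10 (SE 0.15) at week 6. The week 1 value ranked 7 among the 388 miRNAs from the most decreased. Group means, from low to high, were 2.90 ± 0.13 in NASH week 6, 3.17 ± 0.01 in NASH week 2, 3.34 ± 0.06 in NASH week 1, 3.93 ± 0.03 in control week 2, 4.001 ± 0.27 in control week 6 and 4.14 ± 0.23 in control week 1 (SD, n = 2 each). The 3 NASH weeks did not overlap each other, and control week 6 overlapped both other control weeks.

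The size of the liver difference depended on the scaling, while its direction was the same under every one in the mean over weeks. Without scaling between arrays the mean was -0.46 and the week 1 value -0.29 (SE 0.23), and with quantile normalization they were -0.23 and -0.29 (SE 0.16), with 0 at week 2. The processed signals at week 1 were 8549 and 7035 in NASH liver, against 9557 and 9368 in control liver, so the unscaled arrays of that week did not overlap. Across weeks they did, since 8549 lay above control arrays of week 2, at 7410 and 7301, and of week 6, at 7215. At week 6 the signals were 4390 and 6319 in NASH liver, against 7215 and 9045 in control liver.

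**Figure D1:**
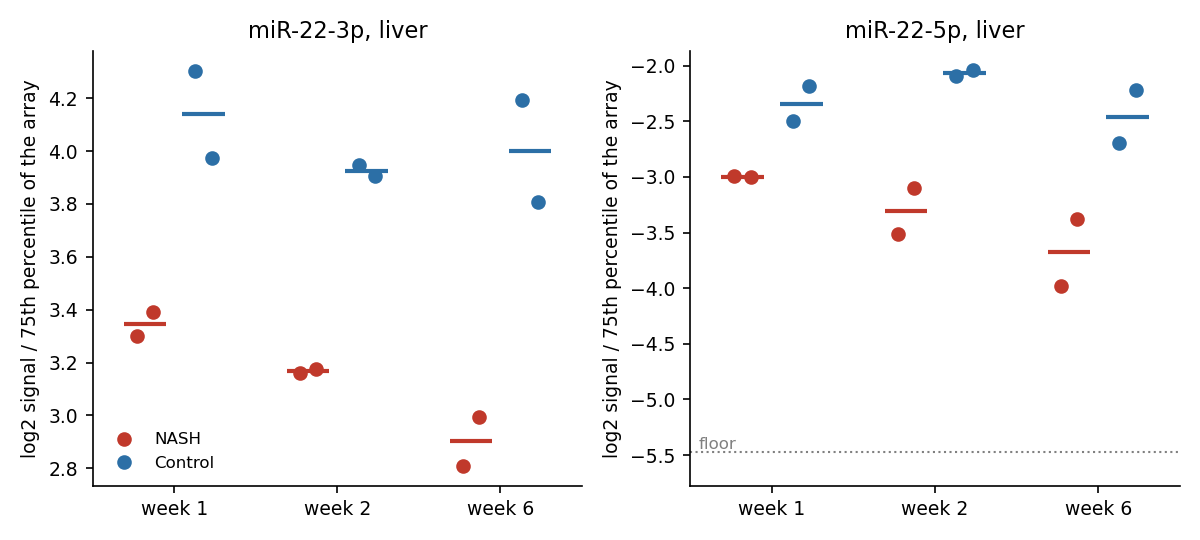
Liver levels of miR-22-3p (left) and miR-22-5p (right) by week, as log2 of signal over the 75th percentile of the array. Points are arrays (red NASH, blue control), lines are means of 2 arrays, and the dotted line is the floor. All 6 NASH arrays lie below all 6 control arrays in both panels.

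miR-22-5p, the arm from the other side of the stem, was also lower in NASH liver. At week 1 it was at -2.99 and -3.00 log2 units on NASH arrays, against -2.50 and -2.19 on control arrays. At week 2 it was at -3.51 and -3.10 on NASH arrays, against -2.09 and -2.04 on control arrays. At week 6 it was at -3.98 and -3.38 on NASH arrays, against -2.69 and -2.22 on control arrays. Again no NASH array reached the scaled level of a control array. Before scaling the signals overlapped at week 1, with 109 and 83.7 in NASH liver against 85.6 and 131 in control liver, and at week 6, with 39.8 and 76.4 in NASH liver against 61.02 and 138 in control liver.

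The difference for miR-22-5p was -1.04 (SE 0.15) as the mean over weeks, which is 0.487 of the control level. By week it was -0.66 (SE 0.26), -1.24 (SE 0.26) and -1.22 (SE 0.26) at weeks 1, 2 and 6, and the week 1 value ranked 19 from the most decreased. Group means, from low to high, were -3.68 ± 0.42 in NASH week 6, -3.31 ± 0.29 in NASH week 2, -3.00 ± 0.01 in NASH week 1, -2.46 ± 0.33 in control week 6, -2.34 ± 0.22 in control week 1 and -2.06 ± 0.04 in control week 2 (SD, n = 2 each). Arrays of NASH weeks 2 and 6 overlapped, as did those of control weeks 1 and 6. Without scaling the mean was -0.61 and the week 1 value -0.15 (SE 0.53).

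The arms had the same direction in liver at every week. The change of miR-22-3p minus that of miR-22-5p was -0.14 at week 1, 0.48 at week 2 and 0.12 at week 6 (SE 0.35 each), and 0.15 (SE 0.20) as the mean. Over the 12 liver arrays, which share diet, week and scaling, the levels of the arms correlated at r = 0.85. Quantile normalization separated them, with -0.23 for miR-22-3p and -1.16 for miR-22-5p.

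Markers of other cells moved in the same livers. The 4 hepatocyte markers summed to 63.4 to 120 scaled units on NASH arrays and to 158 to 181 on control arrays. The 7 immune cell markers summed to 3.16 to 4.68 on NASH arrays and to 1.30 to 1.86 on control arrays, and the 5 markers of stellate cells and fibroblasts to 1.04 to 1.68 on NASH arrays and to 0.731 to 0.975 on control arrays. The 4 red cell markers on the array summed to 1.15 to 4.29 on NASH arrays and to 3.74 to 6.72 on control arrays. The endothelial pair summed to 3.01 to 7.06 on NASH arrays and to 5.89 to 7.61 on control arrays. Called lower were 4 of 4 hepatocyte, 3 of 4 red cell and 2 of 2 endothelial markers, beside 20.4% of all miRNAs tested in liver. Called higher were 5 of 7 immune cell markers and 2 of 5 markers of stellate cells and fibroblasts, beside 21.9% of all. The part of these cells in the lower miR-22 was not tested. In a bulk sample fewer cells of a type and less RNA per cell cannot be told apart.

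In serum the difference ran the other way: miR-22-3p was higher on the NASH diet. At week 1 it was at 3.58 and 3.26 log2 units on NASH arrays, against 2.99 and 3.01 on control arrays. At week 2 it was at 3.77 and 3.16 on NASH arrays, against 2.78 and 2.78 on control arrays. At week 6 it was at 3.39 and 3.23 on NASH arrays, against 2.57 and 2.00 on control arrays. All 6 NASH arrays lay above all 6 control arrays, which 2.35% of the 426 miRNAs tested in serum showed in this direction.

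Serum miR-22-3p was 1.64-fold higher in NASH mice over the 3 weeks (log2 difference 0.71, SE 0.15, limma adjusted p = 0.0193, with 6 of 6 NASH arrays above their week's control mean). Exact two-sided permutation of diet within weeks gave p = 0.00926, the smallest p that its arrangements allow. In this contrast 18.8% of the miRNAs tested were called, 4.93% as higher and 13.8% as lower. The array titles number the replicates without saying that arrays of the same number are paired, and the number coincides with slide row. With slide row as a block the difference was 0.71 and the call held (limma adjusted p = 0.0117). With the number within each week as a block, leaving out the 1 array whose title has none, the difference was 0.78 and the call was lost. It was lost too without replicate 1 of NASH week 1, where the difference was 0.66 and the limma adjusted p 0.0592.

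By week, the difference was 0.42 (SE 0.25) at week 1, with a limma adjusted p of 0.641. It was 0.69 (SE 0.25) at week 2, with a limma adjusted p of 0.243. Without replicate 1 of NASH week 1 the week 1 value was 0.26, and without replicate 1 of NASH week 2 the week 2 value was 0.38. At week 6 it was 1.02 (SE 0.25), 2.03-fold, with a limma adjusted p of 0.0472, and this was the only weekly contrast of either arm that passed. The shares of all serum miRNAs called at weeks 1, 2 and 6 were 1.41%, 2.58% and 12%. The week 6 call was lost in 8 of 15 other settings and when any of 10 of the 12 arrays was left out, with adjusted p-values of 0.0392 to 0.168 and differences of 0.74 to 1.31. The call held when either NASH array of week 2 was left out. Whether the diet effect differed between weeks did not pass (limma F test, adjusted p = 0.737), as it did for 0.469% of all miRNAs.

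Group means of serum miR-22-3p, from high to low, were 3.47 ± 0.43 in NASH week 2, 3.42 ± 0.23 in NASH week 1, 3.31 ± 0.12 in NASH week 6, 3.00 ± 0.01 in control week 1, 2.78 ± 0.001 in control week 2 and 2.29 ± 0.40 in control week 6 (SD, n = 2 each). The NASH weeks overlapped each other, and the control weeks did not. Processed signals ranged from 3347 to 6685 on NASH arrays and from 761 to 5167 on control arrays, so before scaling the highest control array, from week 1, lay above the lowest NASH array, from week 2. Without scaling the mean difference was 1.50, and with the percentile over all probes it was 1.39.

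**Figure D2:**
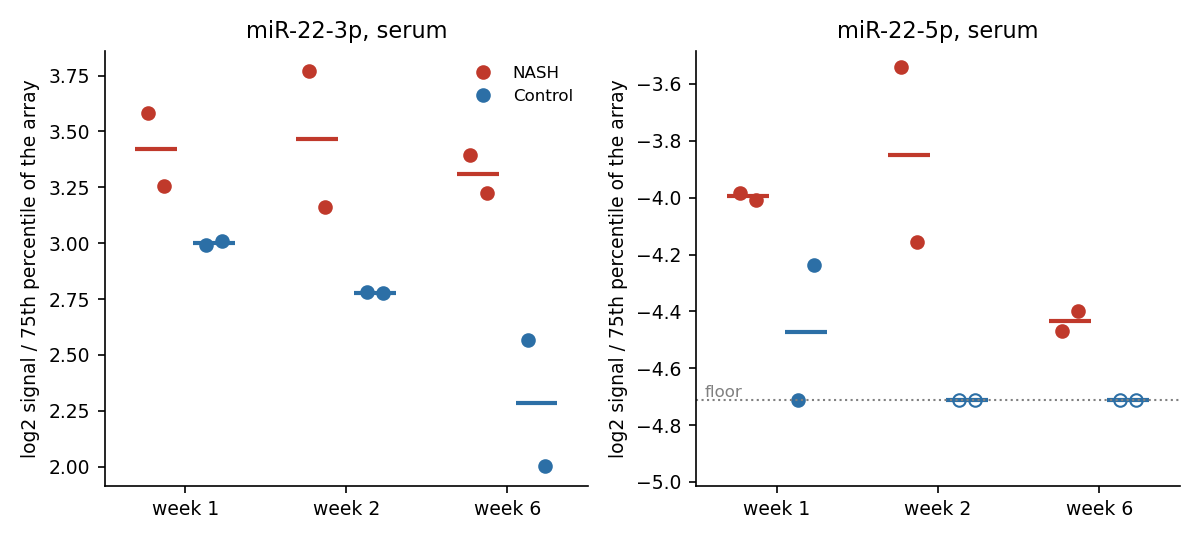
Serum levels of miR-22-3p (left) and miR-22-5p (right) by week, on the same kind of scale, with arrays as points (red NASH, blue control) and means of 2 arrays as lines. Open points are arrays where the probe was not well above background, and the dotted line is the floor, where 5 of 6 control values of miR-22-5p lie. miR-22-3p is higher on all 6 NASH arrays than on any control array.

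miR-22-5p was near its detection limit in serum. It was at -3.98 and -4.01 log2 units on NASH arrays of week 1, against the floor of -4.71 and a measured -4.24 on control arrays. At week 2 it was at -3.54 and -4.16 on NASH arrays, with both control arrays at the floor. At week 6 it was at -4.47 and -4.40 on NASH arrays, again with both control arrays at the floor. No NASH array was at the floor, although the 2 NASH arrays of week 6 lay below the control array of week 1 that was above it.

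In processed signal, miR-22-5p ranged from 15.3 to 35.9 in NASH serum and from 2.81 to 34.1 in control serum. With the floor standing in for 5 of 6 control values, the fit gave a log2 difference of 0.54 (SE 0.13, limma adjusted p = 0.0275, with 6 of 6 NASH arrays above their week's control mean), and exact permutation again gave the smallest possible p of 0.00926. That difference is not a measured size, since only 2 of 6 control arrays had the probe well above background. At weeks 2 and 6 both control values were the floor, so there the count and the permutation only record that NASH arrays lay above it. The weekly fitted differences, 0.48, 0.86 and 0.28 (SE 0.22 each), had limma adjusted p-values of 0.464, 0.0872 and 0.488. They moved to 0.24 at week 1 without replicate 1 of control week 1 and to 0.72 without its replicate 2, and to 0.56 at week 2 without replicate 1 of NASH week 2. At weeks 2 and 6 no control array had the probe well above background, although the file's own detection flag was set for miR-22-5p on replicate 1 of control week 2. Week 2 therefore gives only a bound, at least 1.06-fold higher in NASH serum against the lowest signal well above background. That bound rests on replicate 1 of NASH week 2, since replicate 2, at -4.16, lay below the control bound of -3.93. Week 6 gives no fold.

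The call for miR-22-5p depended on settings and on single arrays, and since arrays at the floor show no spread, its SE may be too small. With the replicate block the difference was 0.55 and the adjusted p 0.192. Blocking on slide row gave an adjusted p of 0.0512, and on the other probe the difference was 0.058 with an adjusted p of 0.724. With normexp background correction the direction reversed, to -0.33 (adjusted p = 0.0243), while the median over miRNAs detected on all serum arrays was at -0.44 there. The call was also lost when any of 7 of the 12 arrays was left out: either NASH array of week 1, replicate 2 of control week 2, or any array of week 6, with limma adjusted p-values of 0.0528 to 0.0802. A test of the arms against each other was set to need 4 serum arrays per diet that detect miR-22-5p, and only 3 of 6 control arrays did, so it was not made. The levels of the arms correlated at r = 0.79 over the 12 serum arrays.

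**Figure D3:**
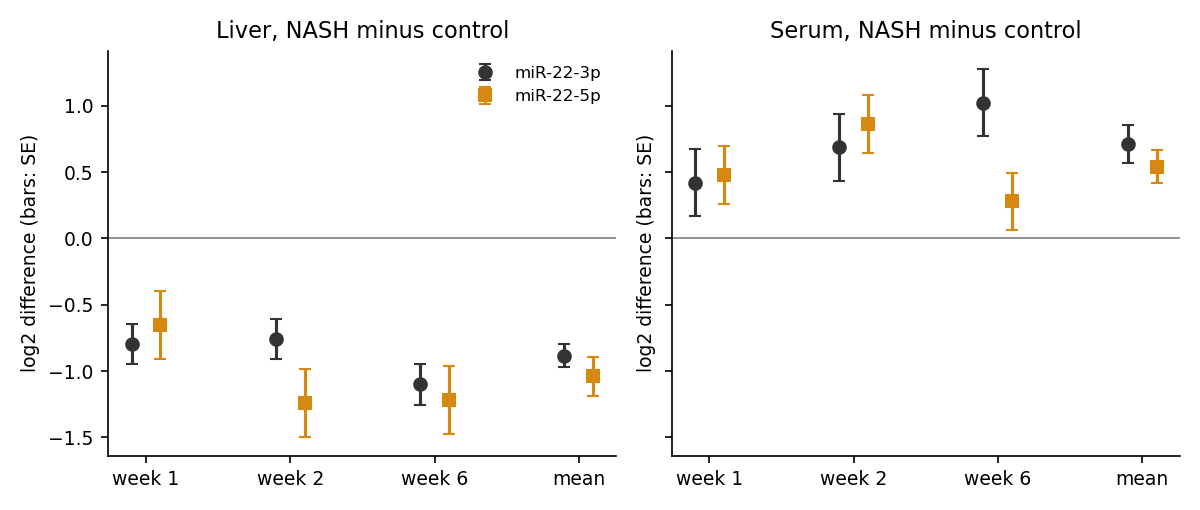
NASH minus control log2 differences of miR-22-3p (circles) and miR-22-5p (squares) in liver (left) and serum (right), at weeks 1, 2 and 6 and as the mean over weeks. Bars are the SE of the limma fit. All liver values are below 0 and all serum values above 0.

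Both directions were seen relative to the other miRNAs of the same tissue. Among miRNAs detected on all 12 arrays of the tissue, the median NASH minus control difference was -0.06 in liver and -0.28 in serum. Taken relative to that median, miR-22-3p was at -0.83 in liver and 0.99 in serum. Across the 6 scalings its relative value stayed between 0.95 and 1.26 in serum, and in liver it was between -0.83 and -0.15, the last with quantile normalization. For miR-22-5p the relative value in serum was between 0.11 and 0.82, and in liver between -1.08 and -0.47.

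**Figure D4:**
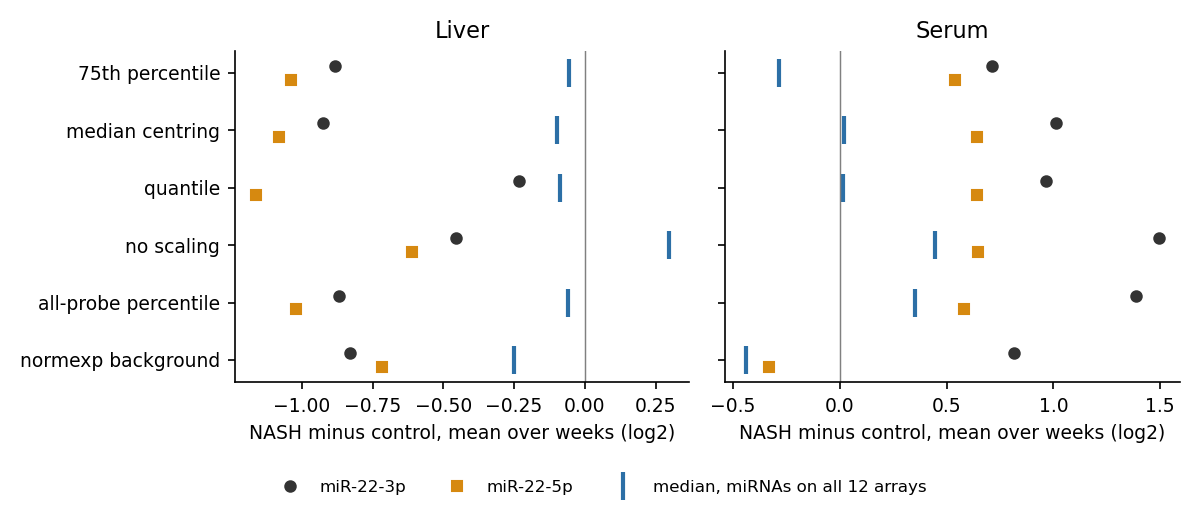
NASH minus control difference, mean over weeks, under 6 ways of scaling or background correction, for miR-22-3p (circles), miR-22-5p (squares) and the median of the miRNAs detected on all 12 arrays of the tissue (blue ticks). miR-22-3p lies left of the tick in liver and right of it in serum in every row. In serum miR-22-5p falls below 0 with normexp, where the tick is at -0.44.

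On chow, neither arm passed the test in any of the contrasts made between weeks. miR-22-3p in control liver at week 6 minus week 2 was at 0.08 (SE 0.15, limma adjusted p = 1), and miR-22-5p was at -0.39 (SE 0.26, limma adjusted p = 0.67). In control serum at week 2 minus week 1, miR-22-3p was at -0.22 (SE 0.25, limma adjusted p = 0.70) and miR-22-5p, 3 of whose 4 values lay at the floor, at -0.24 (SE 0.22, limma adjusted p = 0.615). The unadjusted p-values of these 4 contrasts, each within a slide, were 0.174 to 0.634. Between slides, control serum miR-22-3p at week 6 minus week 1 was at -0.71 (SE 0.25, unadjusted p = 0.0272 and adjusted p = 0.26 in limma), the same size as the serum diet difference, and at week 6 minus week 2 it was at -0.49 (SE 0.25, unadjusted p = 0.0943 and adjusted p = 0.64 in limma). Week and slide cannot be told apart in these. Of all miRNAs tested, 0.515% were called in liver at week 6 minus week 2 and 1.17% in serum at week 2 minus week 1.

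A call in both tissues, lower in liver and higher in serum, was counted over all miRNAs. The liver calls of the miR-22 arms follow from how they were chosen, so the counts and shares are a description with no test. Of 293 miRNAs tested in both, 64 were called lower in NASH liver and 16 higher in NASH serum in the mean over weeks. Both calls fell on 7, which is 10.9% of those lower in liver and 43.8% of those higher in serum. They were miR-22-3p and miR-22-5p, chosen for their liver values, with both arms of miR-122, miR-148a-3p, miR-192-5p and miR-193a-3p, which are enriched in hepatocytes. With normexp background correction miR-193a-3p, like miR-22-5p, turned in serum (-0.23), while miR-22-3p, miR-148a-3p, miR-192-5p and both arms of miR-122 stayed above 0 under all 6 scalings. miR-194-5p, made with miR-192, was at -1.06 in liver and 0.82 in serum and missed the serum call (limma adjusted p = 0.0585). Under the 5 other scalings 3 to 11 miRNAs had both calls. miR-22-3p was among them under all but quantile normalization, and miR-22-5p was absent without scaling and with normexp. A further 12 miRNAs were called lower in both tissues.

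The 7 ranged from 0.52 to 3.82 in serum and from -1.51 to -0.68 in liver. For 2 of them the serum difference is not a measured size. In control serum 5 of 6 values of miR-22-5p were the floor, and miR-122-3p was detected on 0 of 6 arrays. miR-122-5p, the leading hepatocyte miRNA, was at -0.98 (SE 0.05) in liver and at 3.82 (SE 0.57) in serum. miR-192-5p was at -1.26 (SE 0.13) in liver and at 2.65 (SE 0.22) in serum, and miR-148a-3p at -0.68 (SE 0.12) in liver and at 1.64 (SE 0.20) in serum. miR-22-3p, at -0.88 in liver and 0.71 in serum, had a liver difference within the range of these 3 and a serum difference 3.11, 1.94 and 0.92 log2 units smaller than those of miR-122-5p, miR-192-5p and miR-148a-3p. These 3 were picked after their values were seen, so no test is given.

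**Figure D5:**
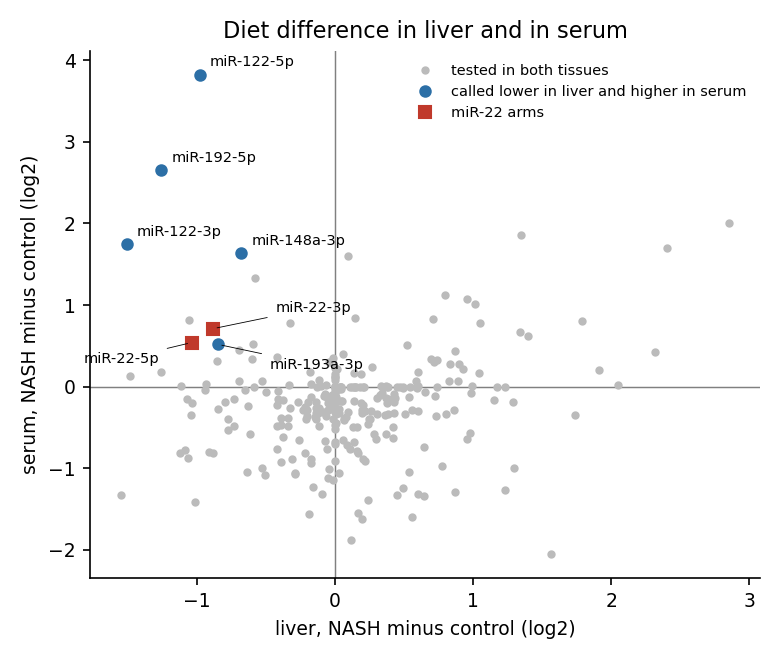
NASH minus control difference (log2, mean over weeks) in liver (x axis) and serum (y axis) for the 293 miRNAs tested in both tissues, as grey points. Red squares are the miR-22 arms, which were chosen for their liver values. Blue points are the other 5 miRNAs called, under the 75th percentile scaling, lower in liver and higher in serum. The miR-22 arms lie near miR-193a-3p and below miR-148a-3p, miR-122 and miR-192-5p on the serum axis.

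Hepatocyte-enriched miRNAs as a list were lower in NASH liver and, for 5 members, higher in NASH serum. This list and the lists of the next paragraphs were chosen with earlier results of these data known, so their counts are a description. Both arms of miR-122, miR-192 and miR-193a count as separate members. In liver 10 of 11 fell, 0 rose and 1 did not pass, where 42.3% of all miRNAs were called, 20.4% as lower and 21.9% as higher. The list's median difference was -0.98, beside 0 over all miRNAs tested, many of which lie at the floor. The members with the lowest p were miR-193a-5p at -0.69, miR-193a-3p at -0.85, miR-122-5p at -0.98 and miR-194-5p at -1.06 (limma adjusted p = 4.53e-06 to 4.13e-05). In serum 5 of 10 tested rose, 0 fell and 5 did not pass, where 4.93% of all miRNAs were called higher and 13.8% lower, with a median of 0.67 beside -0.11 over all. Without scaling 3 of 11 fell in liver, where 2.32% of all did, and 7 of 10 rose in serum, where 8.69% of all did. With normexp 3 rose and 3 fell in serum, with a median of -0.12, where 3.76% of all rose and 81.2% fell.

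The lipid metabolism list of miRNAs known to act on lipid genes, which shares miR-122-5p and miR-148a-3p with the hepatocyte list, was mixed. In liver 8 of 12 fell, 2 rose and 2 did not pass (20.4% of all miRNAs were called lower and 21.9% higher), with a median of -0.40. Without scaling the median was 0.03, and 1 of 12 fell and 3 rose, where 2.32% of all miRNAs were called lower and 30.2% higher. In the scaled liver values the p53-induced miR-34a-5p was at 2.85, while miR-30c-5p was at -0.85. There miR-33-5p, which lies in an intron of Srebf2, was at -0.75 (limma adjusted p = 6.04e-06 to 7.04e-04 for these 3). In serum 3 of 10 rose, 1 fell and 6 did not pass (4.93% of all were called higher and 13.8% lower), with a median of 0.03; miR-34a-5p was at 2.00 and miR-378a-5p, from an intron of Ppargc1b, at -0.89 (limma adjusted p = 0.00107 and 0.0165).

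Of the miR-132 and miR-212 cluster, on the same chromosome as miR-22, 2 of 4 mature miRNAs were tested, and they went opposite ways. In liver miR-212-3p was at -0.73 (SE 0.02) and miR-132-3p at 0.95 (SE 0.05), with limma adjusted p-values of 2.31e-06 and 1.66e-05. Only 1 of 6 control arrays detected miR-132-3p. Over the 6 scalings liver miR-132-3p ranged from 0.02 to 1.11, and its call was lost with normexp. Liver miR-212-3p ranged from -0.83 to -0.30, and its call was lost without scaling. In serum miR-132-3p was at 1.08 (SE 0.14) and miR-212-3p at -0.48 (SE 0.12), with limma adjusted p-values of 0.00411 and 0.0327; their signs turned under other scalings, to -0.14 for miR-132-3p with normexp and 0.30 for miR-212-3p without scaling. miR-22-3p and miR-22-5p had the sign of miR-212-3p in liver and of miR-132-3p in serum.

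Serum markers of other sources moved with the diet as well. The 4 hepatocyte markers summed to 18.5 to 31.3 scaled units on NASH arrays and to 0.766 to 4.06 on control arrays, where miR-122-3p was detected on no control array. The 4 red cell markers on the array summed to 8.19 to 72.0 on NASH arrays and to 30.8 to 67.3 on control arrays, and miR-144-5p was detected on neither. By week the red cell sums were 29.4 to 72.0 on NASH arrays against 34.8 to 67.3 on control arrays at week 1, and 22.1 to 37.9 on NASH arrays against 30.8 to 38.4 on control arrays at week 2. At week 6 they were 8.19 to 14.6 on NASH arrays against 51.2 to 54.7 on control arrays, without overlap, in the week whose miR-22-3p difference passed. The 6 markers of skeletal and heart muscle, tissues that also make miR-22, summed to 1.86 to 8.98 on NASH arrays and to 13.7 to 29.6 on control arrays, with miR-208a-3p detected on none. The 7 immune cell markers summed to 6.40 to 21.6 on NASH arrays and to 5.97 to 12.9 on control arrays. At week 6 their sums were 13.6 to 21.6 on NASH arrays against 8.55 to 11.7 on control arrays. Over the weeks 1 member was called higher and 3 lower, where 4.93% of all miRNAs tested in serum were called higher and 13.8% lower. Among those called lower, miR-155-5p was at -0.19 (SE 0.016) and was detected on only 2 NASH and 3 control arrays. The 5 stellate cell and fibroblast markers summed to 0.0955 to 0.611 on NASH arrays and 0.804 to 1.50 on control arrays. The endothelial pair summed to 0.176 to 1.01 on NASH arrays and 0.526 to 2.40 on control arrays. The part of these sources in serum miR-22 was not tested.

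The miRNAs whose level was most like that of miR-22 over the 12 arrays of a tissue differed between the arms and tissues. For miR-22-3p in liver, among 217 miRNAs compared, they were miR-30a-3p and miR-122-5p (r = 0.97 each), miR-30e-3p (0.97), miR-30c-5p (0.96) and miR-193a-5p (0.95). For miR-22-5p in liver they were miR-31-3p (0.98), miR-30b-5p (0.98), miR-203-3p (0.98), miR-27b-3p (0.98) and miR-192-3p (0.97). Within diet-by-week groups r with miR-22-3p was lower, at 0.81 for miR-30a-3p, 0.71 for miR-122-5p and 0.68 for miR-30e-3p. It was 0.57 for miR-193a-5p and 0.49 for miR-30c-5p. For miR-22-5p the within-group r went from 0.89 with miR-203-3p to 0.98 with miR-31-3p.

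For miR-22-3p in serum, among 195 miRNAs, the order was miR-148a-3p (0.90), miR-500-3p (0.81), miR-27b-3p (0.79), miR-3473f (0.78) and miR-192-5p (0.75). That of miR-27b-3p was 0.44 without the 2 arrays farthest from the median of miR-22-3p. Within groups r was 0.28 with miR-148a-3p and -0.24 with miR-192-5p, while it was 0.67 with miR-500-3p, 0.60 with miR-27b-3p and 0.60 with miR-3473f. All these correlations share arrays, diet and scaling and are given as a description.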

How the data were processed

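Per the file headers, the deposited files hold the scanner intensity of each spot, as extracted by Agilent Feature Extraction 11.5.1.1 (11.5 per the submitters' processing notes), with the background subtracted and no normalization between arrays. Per the labels' protocols, Cy3 labelling used 100 ng of RNA from liver and 2.5 ng from serum, extracted from 200 uL.

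Spots of a probe were averaged after removal of control and outlier spots. Array signals were divided by the array's 75th percentile over the probes well above background (at least 50% of spots) on all 12 arrays of the tissue, 299 in liver and 253 in serum. A floor per tissue, which is the 5th percentile of an array's scaled signals well above background (median of the arrays), was set before log2 was taken from the deposited intensity. The brightest probe stood for a miRNA. For each tissue limma 3.58.1 (R 4.3.3, eBayes) fitted a mean per diet and week, 6 in all, over the miRNAs detected on at least 2 arrays, 388 in liver and 426 in serum, with Benjamini-Hochberg adjustment over all of them and a threshold of 0.05. The code was tested on simulated data.

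The precision of the array values is limited by the number of arrays. Arrays lay on 3 slides, with both diets of a week on the same slide. Replicate number coincides with slide row. Deviations from the group means correlated, between NASH and control arrays of the same number, at 0.53, 0.13 and 0.18 over serum weeks 1, 2 and 6, all above 0.1, and at -0.46, 0.33 and 0.44 in liver, where the numbers were not taken to pair arrays. The headers name an older genome build than the sequence table, whose coordinates are given.

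The members and the lists were chosen with earlier results of these data known. The naming rule took both arms, the 5 miRNAs most correlated with an arm detected on all arrays of the tissue, up to 4 members per list by lowest adjusted p, and miRNAs sharing a seed. The miRNAs compared with miR-22-3p in serum, and the 7 called in both tissues, were named after their values were seen. Other settings were tried for the scaling, background correction, signal column, choice of probe, floor, detection filter, blocks and variance model, and single arrays were left out.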

Additional observations from a re-analysis of the deposited data

Results flagged for a closer look

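The diet difference of miR-22-3p in serum exceeded that in liver by 1.60 log2 units, because every NASH array was above the control mean of its week in serum and below it in liver. For miR-22-5p the fitted gap was 1.58 log2 units, with the same directions on every NASH array, and with normexp background correction it was 0.38, both tissues then being below control. The difference between the tissues was not tested in either case, the liver values had chosen both arms, and the serum part for miR-22-5p is no measured size, since 5 of 6 control values are the floor.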

How the results depend on the processing

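The serum call for miR-22-3p held in 14 of 15 other settings and 11 of 12 left-out arrays (differences of 0.61 to 0.81); the replicate block (0.78) ended it, as did leaving out NASH week 1 replicate 1. Its week 6 difference lost the call with the all-probe percentile (1.78), quantile normalization (1.56), the mean over probes (1.04), the other probe (1.11), a floor 4 times lower, detection on all arrays and limma-trend (1.02 each) and the replicate block (1.22), and was 0.74 to 1.31 without single arrays; its week 2 difference gained a call with normexp (0.84). The serum call for miR-22-5p was lost without scaling (0.64), with the mean over probes (0.27), the other probe (0.058), the replicate block (0.55) and slide row as a block (0.54); it held at 1.48 with the total gene signal and 0.93 with a floor 4 times lower, and ranged from 0.44 to 0.64 without single arrays. With normexp it reversed in the mean (-0.33), at week 2 (-0.43) and at week 6 (-0.57), and its control serum difference, week 2 minus week 1, reversed to 0.78. Its week 2 difference gained a call with the all-probe percentile (1.01) and quantile normalization (0.94), and its week 6 difference with the total gene signal (1.68).

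In liver the miR-22-3p difference moved with quantile normalization (-0.23 in the mean; -0.29, 0 and -0.41 at weeks 1, 2 and 6), without scaling (-0.46; -0.29, -0.46 and -0.62), with the all-probe percentile (-0.61, -1.10 and -0.88 by week) and with the total gene signal at week 1 (-0.98). Without single arrays it was -0.96 to -0.63 at week 1 and -1.29 to -0.91 at week 6. The miR-22-5p difference moved without scaling (-0.61; -0.15, -0.95 and -0.74), with normexp (-0.72; -0.78 and -0.83 at weeks 2 and 6) and with the all-probe percentile at week 2 (-1.59), and was -1.52 to -0.92 at week 6 without single arrays. The control liver difference of miR-22-3p, week 6 minus week 2, which was not called, reversed with the all-probe percentile (-0.22), with the other probe (-0.039) and without control week 6 replicate 1 (range -0.12 to 0.27). The causes were not tested.

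Calls in serum numbered 80 (21 higher, 59 lower), and 362 with normexp (16 higher, 346 lower), 39 with the all-probe percentile (32 higher, 7 lower), 44 without scaling (37 higher, 7 lower), 75 with median centring (36 higher, 39 lower), 61 with quantile normalization (36 higher, 25 lower), 35 with the other probe, 140 with a floor 4 times lower and 30 with the replicate block, and 49 to 118 without single arrays (51, 49 and 51 without NASH week 1 replicate 1, NASH week 2 replicate 1 and NASH week 6 replicate 2). Calls in liver numbered 164 (85 higher, 79 lower), and 102 with the all-probe percentile (64 higher, 38 lower), 103 with the other probe, 258 with a floor 4 times lower, 126 without scaling (117 higher, 9 lower) and 204 with normexp (32 higher, 172 lower). The replicate block gave 147 liver calls, and 176 with the numbers of the NASH arrays of week 1 crossed, a pairing added after the data were seen, as was leaving out miRNAs constant at the floor (172 calls in liver, 93 in serum). Limits are the 2 arrays per group, the control serum signal of miR-22-5p near background, and an array scaling that itself differed with diet.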
